A study of Homo sapiens with 20 samples.

Results

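The 10 genes described here encode the receptors of the insulin-like growth factor (IGF) system, IGF1R, IGF2R and INSR, and the secreted IGF binding proteins IGFBP1 to IGFBP7. They were taken by their gene names from 27697 tested genes, and all 10 passed the requirement of at least 1 count in each condition. RNA was sequenced from NGP cells, an established human neuroblastoma cell line grown in culture, in 10 samples treated with 8 µM racemic nutlin-3 and 10 samples treated with the vehicle, ethanol. Nutlin-3 occupies the pocket of MDM2, a ubiquitin ligase, that holds its main target. All 20 samples come from this 1 cell line, no untreated cells are among them, and the length of the treatment is not given in the sources used here. Poly(A) RNA was sequenced as paired-end reads, and a library held between 14455477 and 19532971 estimated counts.

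IGF1R and INSR are receptor tyrosine kinases that pass the signal of IGFs and insulin to the PI3K and AKT kinases. IGF2R has no kinase domain: it takes up IGF2 for degradation and carries enzymes tagged with mannose 6-phosphate to the lysosome. The IGFBPs bind IGFs outside the cell and control how much ligand reaches IGF1R, and proteases such as PAPPA release the ligand again. Neuroblastoma cells are known to use IGF2 as a growth and survival factor.

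Levels are given as TPM, which corrects for transcript length and allows genes to be compared within a sample. Changes are given as LFC, the log2 fold change of nutlin over vehicle, from CPM, the counts scaled to the depth of the library, with TMM normalization and edgeR's quasi-likelihood test, with Benjamini-Hochberg adjustment over all genes. In that test 5 of the 10 genes rose and 2 fell at 5% FDR, against 58.8% of all genes called, 32.3% up and 26.5% down. When only those averaging 1 CPM or more were considered, 80.2% were called, and 6 of the 7 members at that level. The samples of the conditions did not overlap for 5 of the members, 3 higher and 2 lower in nutlin, against 28.8% of all genes, 12.2% higher and 16.6% lower. Each of these counts of members called or higher in nutlin includes IGF1R, whose full-length mRNA was not matched, as given below. The 5 that rose also include IGFBP1, at a mean of 0.124 CPM. The median LFC of all genes was 0.19. With upper-quartile factors it was 0.36 and with library totals alone 0.37. The genes called up and down numbered 8935 and 7340 with TMM, 11335 and 5724 with upper-quartile factors, and 11560 and 5514 with library totals, so small LFC values are to be read against these shifts.

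The label of the cells was checked with marker genes. The summed TPM of 8 adrenergic neuroblast markers was between 2656 and 3072 in vehicle samples and between 3217 and 4083 in nutlin samples, with HAND2 and CHGA at the highest CPM. Of the 8, 3 rose and 4 fell. The 7 mesenchymal markers summed to between 9.69 and 13.8 TPM in vehicle and between 11.7 and 16.2 in nutlin. Single mesenchymal markers moved in opposite directions beneath these sums: COL1A1 and PRRX1 rose with LFC values of 1.98 (SE 0.07) and 1.97 (SE 0.21), LUM fell with an LFC of -1.71 (SE 0.18), and PDGFRB, named after its value was seen, fell with an LFC of -0.95 (SE 0.08). Schwann and endothelial markers stayed at or below 2.25 and 1.20 TPM in any sample. The 2 leukocyte markers summed to between 0.389 and 1.67 TPM in vehicle and between 2.96 and 6.56 in nutlin, nearly all from CD68, with PTPRC at mean TPM of 0.0645 and 0.125. The 2 hepatocyte markers were at 0 TPM in every vehicle sample and at most 1.27 in nutlin. The part of these markers in the results below was not tested. In bulk RNA, fewer cells of a kind and less RNA per cell cannot be told apart. MDM2, whose product nutlin-3 binds, was at between 199 and 290.3 CPM in vehicle samples and between 4797 and 6005 CPM in nutlin samples, so each sample sat with its label.

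The sequences that separate the receptor transcripts named below are shown first, because the transcript results rest on them. Exon 11 of INSR (chr19:7150497-7150532, minus strand, GRCh38, 36 bases, coding) is kept in transcript INSR-201 and left out of INSR-202. The first form encodes the B isoform of the insulin receptor and the second the A isoform, which is known to bind IGF2 with high affinity. Transcript sequences are from GENCODE release 44. In the lines below, 15 bases of the neighbouring exons stand on each side and exon 11 is in capitals.
INSR-201: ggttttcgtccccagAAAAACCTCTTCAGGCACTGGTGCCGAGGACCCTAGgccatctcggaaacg
INSR-202: ggttttcgtccccaggccatctcggaaacg
IGF1R-208, a transcript of the type retained intron, runs through 10 exons of IGF1R and ends within the intron after exon 10. Its last 79 bases (chr15:98916877-98916955, plus strand, GRCh38) are intron sequence, in capitals below after the last 15 bases of exon 10.
IGF1R-208: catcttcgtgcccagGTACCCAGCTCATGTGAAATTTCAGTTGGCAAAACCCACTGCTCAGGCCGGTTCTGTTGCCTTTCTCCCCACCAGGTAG

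The order of the levels was headed by IGFBP2, IGFBP3 and IGFBP4. In vehicle samples IGFBP2 had a median of 389 TPM (362.8 to 413) and stood clear of IGFBP3 at 74.6 TPM (50.7 to 85.5). IGFBP3 and IGFBP4, at 63.8 TPM (57.9 to 68.5), overlapped in vehicle but not in nutlin, where IGFBP3 had a median of 183.6 TPM and IGFBP4 of 60.3. IGF2R followed at 14.4 TPM in vehicle and 17.8 in nutlin, clear of its neighbours in both conditions. INSR was at 5.42 and 5.05 TPM and IGFBP5 at 3.68 and 4.64. IGFBP1, IGFBP6 and IGFBP7 had medians between 0.0444 and 0.181 TPM in both conditions, and their ranges overlapped one another. IGFBP2, a binding protein that is abundant in fetal and neural tissue, thus had the highest TPM in both conditions. Of its TPM, 51.7% in vehicle and 45.5% in nutlin were assigned by the quantification to IGFBP2-204, a transcript of 846 bases described below. In mean CPM, which is not corrected for length, IGFBP3 stood above IGFBP2 in nutlin, at 290.3 against 260.2. IGF1R is left out of the order in TPM, because the values summed under its name are not those of the full-length mRNA, as given below.

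**Figure D1:**
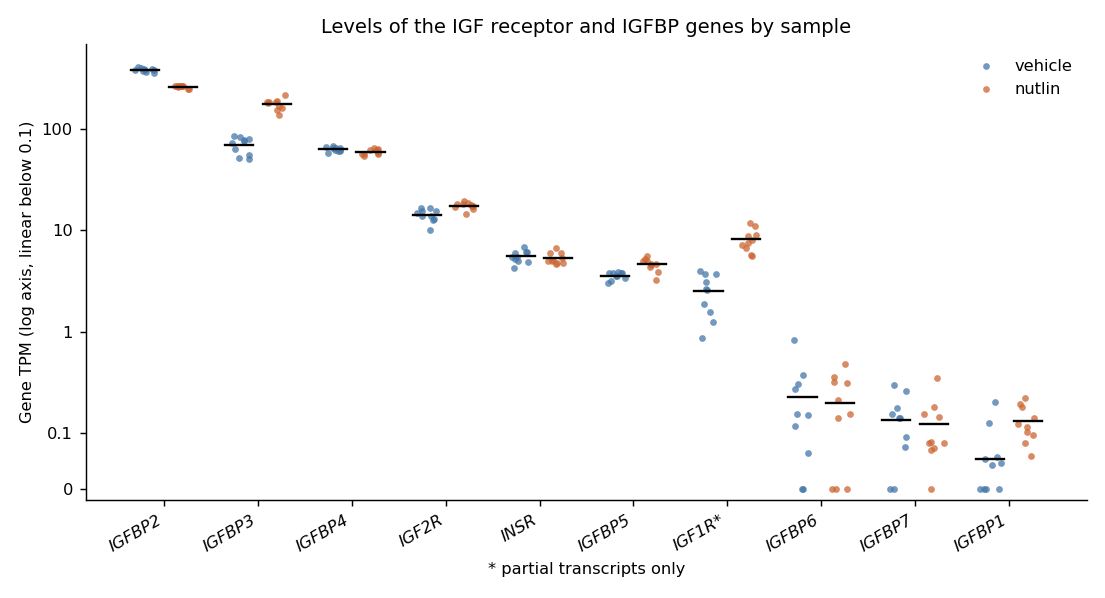
Gene TPM (vertical axis, logarithmic and linear below 0.1) of each gene in the 10 vehicle samples (blue) and 10 nutlin samples (orange), with the mean as a black line; IGF1R holds partial transcripts only. IGFBP2 was highest in TPM in both conditions, IGFBP3 moved away from IGFBP4 in nutlin, and IGFBP1, IGFBP6 and IGFBP7 lay near 0.

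Among the receptors, IGF2R rose and INSR fell, and the transcripts of INSR moved apart. IGF2R (ENSG00000197081, chr6:159969082-160113507, plus strand) was at a lowest, median and highest value of 105.7, 110.1 and 119 CPM in vehicle and of 135.2, 143 and 150 CPM in nutlin. Every nutlin sample lay above every vehicle sample. The LFC was 0.36 with an SE of 0.03, a 1.28-fold rise (95% interval 1.23 to 1.34, edgeR adjusted p = 2.1e-11), which was 0.17 above the median of all genes. Most of its counts lay on IGF2R-201, the full-length mRNA, at 1652 counts in the median vehicle sample and 2134 in the median nutlin sample.

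INSR (ENSG00000171105, chr19:7112255-7294414, minus strand) was at 35.9, 38.4 and 44.8 CPM in vehicle and at 29.6, 31.9 and 35.5 CPM in nutlin. The groups did not overlap, with the highest nutlin sample just under the lowest vehicle sample. The LFC was -0.29 with an SE of 0.05 (0.82-fold, 95% interval 0.77 to 0.87, edgeR adjusted p = 3.2e-06). With library totals in place of TMM the LFC was -0.10 (adjusted p = 0.083), and with an offset for effective length it was -0.05 (adjusted p = 0.63), so the call on INSR ended under both.

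Over all members, 45 of 55 transcripts in the files were tested, of which 13 were called up and 4 down, against 22.5% of all transcripts, 12.1% up and 10.4% down. Of these calls, 9 of those up were on IGFBP3 and 3 of those down on IGFBP2, so the counts mostly restate the changes of these genes. The transcripts of INSR moved in opposite directions. INSR-202, the form without exon 11, fell with an LFC of -0.44 (SE 0.05, edgeR adjusted p = 1.5e-06 over all transcripts), from a median of 560 counts in vehicle (438.3 to 739.5) to 429 in nutlin (388.9 to 468.6). INSR-201, the form with exon 11, rose with an LFC of 1.16 (SE 0.27, adjusted p = 0.0026), from a median of 22.1 counts (12.3 to 45.3) to 59.3 (21.6 to 82.9). The form without exon 11 was the more abundant in all 20 samples. As a share of the TPM of both, INSR-201 was at 7.53% ± 2.75 (SD, n = 10) in vehicle and 19.4% ± 7.13 (SD, n = 10) in nutlin, a difference of 11.9 percentage points (2-sided permutation test, p = 0.00024). The nutlin samples spread from 8.35% to 27.2% and overlapped the vehicle samples, which reached from 3.27% to 12.6%. In the deposited files INSR-201 is 4721 bases long and INSR-202 is 8954, since the long 3′ end belongs to INSR-202 alone there. The use of exon 11 and of the long 3′ end therefore cannot be told apart in these values.

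**Figure D2:**
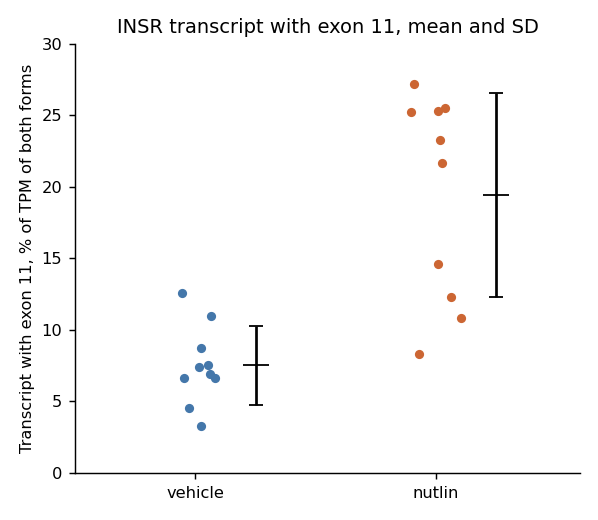
Share of INSR-201, the transcript with exon 11, in the summed TPM of INSR-201 and INSR-202 (vertical axis, percent) in each vehicle and nutlin sample, with mean and SD beside the points. The vehicle samples lay between 3.27% and 12.6% and the nutlin samples between 8.35% and 27.2%.

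For IGF1R (ENSG00000140443, chr15:98648539-98964530, plus strand), 15 of the 17 transcripts in GENCODE release 44 were matched by identifier to the files, all of them partial or with a retained intron. The full-length coding transcripts of that release were not matched, so the level of the full-length receptor mRNA was not analysed here. The summed partial transcripts were at 0.482, 0.969 and 1.93 CPM in vehicle and at 4.51, 6.92 and 9.08 CPM in nutlin. Every nutlin sample was higher, with an LFC of 2.70 (SE 0.17, edgeR adjusted p = 2.7e-14). With an offset for effective length the LFC was 1.70.

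IGF1R-208 alone among the 9 tested transcripts of IGF1R was called. It held a median of 0 counts in vehicle, with 8.87 in the highest sample, and a median of 84.2 counts in nutlin (33.0 to 98.1). The groups did not overlap, and the fitted LFC, which depends on the prior count at such low vehicle values, was 5.25 (SE 0.64, edgeR adjusted p = 1.0e-06). Its share of the TPM of all matched IGF1R transcripts was 2.49% in vehicle and 28.2% in nutlin. IGF1R-204, a transcript of 548 bases without a defined coding sequence, had a median of 8.62 counts in vehicle and 15.6 in nutlin, with overlapping groups (LFC 0.64, SE 0.27, adjusted p = 0.11). Since 10 exons of IGF1R-208 are shared with the full-length mRNA, reads in those exons were divided by the quantification and not observed as belonging to either. Of the 6 lncRNA genes that overlap a member on the other strand, 4 were tested and none was called: SYNM-AS1, opposite IGF1R, had an LFC of 0.57 (SE 0.29, edgeR adjusted p = 0.088), and AIRN, DIRC3-AS1 and IGFBP7-AS1 had mean counts below 1 in both conditions. Whether the quantification used the strand is not given in the sources used here.

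Among the binding proteins, IGFBP3 rose and IGFBP2 fell in every nutlin sample. IGFBP3, the main carrier of IGFs in the circulation, binds both IGFs and is known to restrain growth (ENSG00000146674, chr7:45912245-45921874, minus strand). It was at 86.1, 122 and 165.6 CPM in vehicle and at 246.9, 292.2 and 353.8 CPM in nutlin. The lowest nutlin sample was well above the highest vehicle sample. The LFC was 1.27 with an SE of 0.09, a 2.41-fold rise (95% interval 2.14 to 2.71, edgeR adjusted p = 9.8e-14). All 9 of its transcripts in the files were called up.

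The most abundant transcripts of IGFBP3 both rose. IGFBP3-209, the representative mRNA, had a median of 887.8 counts in vehicle and 2091 in nutlin (LFC 1.28, SE 0.22). IGFBP3-202, which lacks 291 bases within the first exon (chr7:45920841-45921131), had medians of 933.3 and 2269 counts (LFC 1.17, SE 0.13). In both the ranges of the conditions overlapped, although those of the gene did not. The steepest fitted rises were on shorter forms, IGFBP3-208 with an LFC of 2.23 (SE 0.19) and IGFBP3-201 with an LFC of 2.16 (SE 0.54), both under 7% of the gene's TPM.

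The 250 bases upstream of the IGFBP3 start site (chr7:45921273-45921522, minus strand, RefSeq, GRCh38.p14) are shown because IGFBP3 had the largest change among members averaging 1 CPM or more with a full-length mRNA in the files. Capitals mark the sequence GGGCGG, a GC box, on either strand.
IGFBP3 upstream: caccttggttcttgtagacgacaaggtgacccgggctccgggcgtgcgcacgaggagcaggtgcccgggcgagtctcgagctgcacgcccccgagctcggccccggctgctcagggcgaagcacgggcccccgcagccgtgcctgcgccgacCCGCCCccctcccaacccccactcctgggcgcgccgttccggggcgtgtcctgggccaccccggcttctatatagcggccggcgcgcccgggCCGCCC
Promoter windows of 300 bases, from 250 before to 50 after the start, were found for 8 members. GGGCGG on either strand occurred 2 times in that of IGFBP3, 6 times in IGF2R, 4 in INSR, 2 in IGF1R and IGFBP4, 1 in IGFBP6, and not in IGFBP5. For IGFBP2 it occurred 1 time at the main start and 1 time at a start upstream of it, and not at the one downstream. At least 1 match was found in 45.0% of 35116 promoters. The windows of the members were between 55.3% and 79.7% G and C, the only bases of GGGCGG, and promoters of like content were not compared. TATAAA was found only in the window of IGFBP4, against 11.5% of promoters, and CCAAT only in a window 26147 bases downstream of the main IGFBP2 start, against 34.6%. IGFBP3, which rose, and IGFBP4, which was not called, held the same number of GGGCGG matches.

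IGFBP2 (ENSG00000115457, chr2:216632828-216664436, plus strand) was at 317, 364.2 and 410 CPM in vehicle and at 240.2, 262 and 284.4 CPM in nutlin. No nutlin sample reached the lowest vehicle sample. The LFC was -0.49 with an SE of 0.04 (0.71-fold, 95% interval 0.67 to 0.75, edgeR adjusted p = 1.8e-11), and it was negative under all 30 alternatives run. Most of its estimated counts were assigned to 2 transcripts with different annotated starts. IGFBP2-204 lies within the span of IGFBP2-201, so reads were divided between them by the quantification, and use of the second start was not observed directly. IGFBP2-201, the mRNA from the main start, had a median of 3501 counts in vehicle and 2786 in nutlin (LFC -0.39, SE 0.06). IGFBP2-204 starts 26198 bases further downstream and had medians of 2066 and 1241 counts (LFC -0.72, SE 0.06), without overlap of the conditions. It made up 51.7% of the gene's TPM in vehicle and 45.5% in nutlin. The difference between both transcripts' LFC was not tested.

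IGFBP4, which inhibits IGF action and is cut by PAPPA, was at 116.2, 122.9 and 137.2 CPM in vehicle and at 111.2, 118.7 and 124.4 CPM in nutlin (ENSG00000141753, chr17:40443450-40457725, plus strand). The groups overlapped between 116.2 and 124.4 CPM. The LFC was -0.06 (SE 0.03, edgeR adjusted p = 0.13), with a 95% interval of 0.91-fold to 1.004-fold, and its sign turned with the scaling: 0.11 with upper-quartile factors (adjusted p = 0.0087) and 0.13 with library totals (adjusted p = 0.00094). Relative to the median of all genes it was 0.25 lower with TMM.

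IGFBP5, a binding protein that also attaches to the extracellular matrix, rose (ENSG00000115461, chr2:216672105-216695549, minus strand). It was at 17.0, 21.1 and 23.1 CPM in vehicle and at 20.9, 25.4 and 28.3 CPM in nutlin. The groups overlapped at their edges. The LFC was 0.29 (SE 0.06, 1.22-fold, 95% interval 1.13 to 1.33, edgeR adjusted p = 9.0e-05), 0.10 above the median of all genes. With library totals in place of TMM the LFC of IGF2R, IGFBP2 and IGFBP5 were 0.55, -0.30 and 0.48, all still called. IGFBP5 and IGFBP2 lie 7668 bases apart on chromosome 2 on opposite strands, and moved in opposite directions.

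IGFBP1, IGFBP6 and IGFBP7 were near the limit of detection. IGFBP1, a binding protein made mainly by the liver, had 10 counts over all vehicle samples, 4 of which had none, and 28 counts over the nutlin samples, where each had between 1 and 5 (ENSG00000146678, chr7:45888360-45893660, plus strand). Its LFC was 1.34 (SE 0.51, edgeR adjusted p = 0.024), with a 95% interval of 1.27-fold to 5.03-fold. Without nutlin replicate 8 the adjusted p was 0.050271, past the threshold, and in the 16 samples whose replicate numbers both conditions share it was 0.055. It lies 18584 bases from IGFBP3. IGFBP6 (ENSG00000167779, chr12:53097436-53102345, plus strand) had 15 and 17 counts over the vehicle and nutlin samples, and IGFBP7 (ENSG00000163453, chr4:57030773-57110385, minus strand) at 18.5 and 18.4. Neither was called (adjusted p = 0.86 and 0.98), and the 95% intervals, 0.50-fold to 2.40-fold and 0.50-fold to 1.93-fold, include changes as large as those of IGF2R, INSR, IGFBP2 and IGFBP5.

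**Figure D3:**
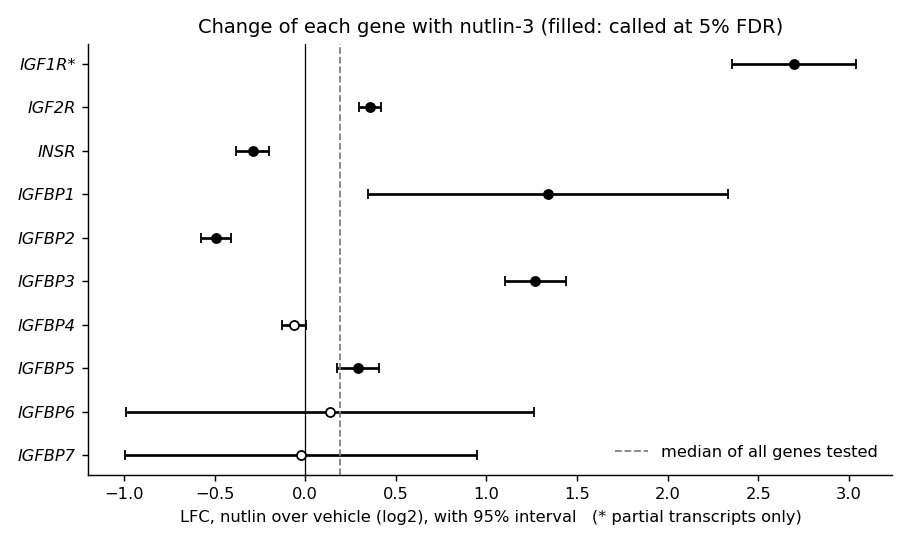
LFC of nutlin over vehicle (horizontal axis, log2) for each gene with bars of the 95% interval, filled points for genes called at 5% FDR and a dashed line at the median of all genes tested, 0.19. IGF1R (partial transcripts), IGFBP1 and IGFBP3 lay above 1, and INSR and IGFBP2 lay below 0 with their whole bars. IGFBP4 and IGFBP7 lay just below 0 with bars that crossed it. The bars of IGFBP1, IGFBP6 and IGFBP7 were the widest.

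In TPM, the pool of IGFBP transcripts changed its make-up more than its size. The summed TPM of the 7 IGFBPs was 525.6 ± 17.5 (SD, n = 10) in vehicle and 507.8 ± 25.02 (SD, n = 10) in nutlin (permutation test, 2-sided, p = 0.084). IGFBP2 made up 73.9% ± 2.33 (SD, n = 10) of it in vehicle and 52.2% ± 2.75 (SD, n = 10) in nutlin. IGFBP3 made up 13.3% ± 2.32 (SD, n = 10) and 34.9% ± 2.80 (SD, n = 10). The conditions did not overlap for either share, and both differences, -21.6 and 21.6 percentage points, had an adjusted p of 0.00014 over the 7 shares (permutation test, 2-sided, raw p = 6.0e-05). Shares of one total are tied to one another, so that the rise of one share carries the fall of another. The levels of these shares, and the direction of the difference in the total, depend on the correction for length. In mean estimated counts IGFBP2 went from 5578 in vehicle to 4072 in nutlin, and IGFBP3 from 1834 to 4534. IGFBP3 thus had more counts than IGFBP2 in nutlin, and its rise in counts was larger than the fall of IGFBP2. Under the alternatives run, the share of IGFBP2 differed by -22.2 to -20.5 percentage points and that of IGFBP3 by 21.1 to 22.7. The share of IGFBP4 was 12.1% and 11.9% (adjusted p = 0.62). Taken from estimated counts in place of TPM, the share of IGFBP4 differed by -2.53 percentage points (permutation test, raw p = 0.00012). The share of IGFBP5 was 0.680% and 0.908% (adjusted p = 0.00014), and that of IGFBP1 was 0.01003% and 0.0256% (adjusted p = 0.013). The shares of IGFBP6 and IGFBP7 were below 0.2% in every sample (adjusted p = 0.87 for both).

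**Figure D4:**
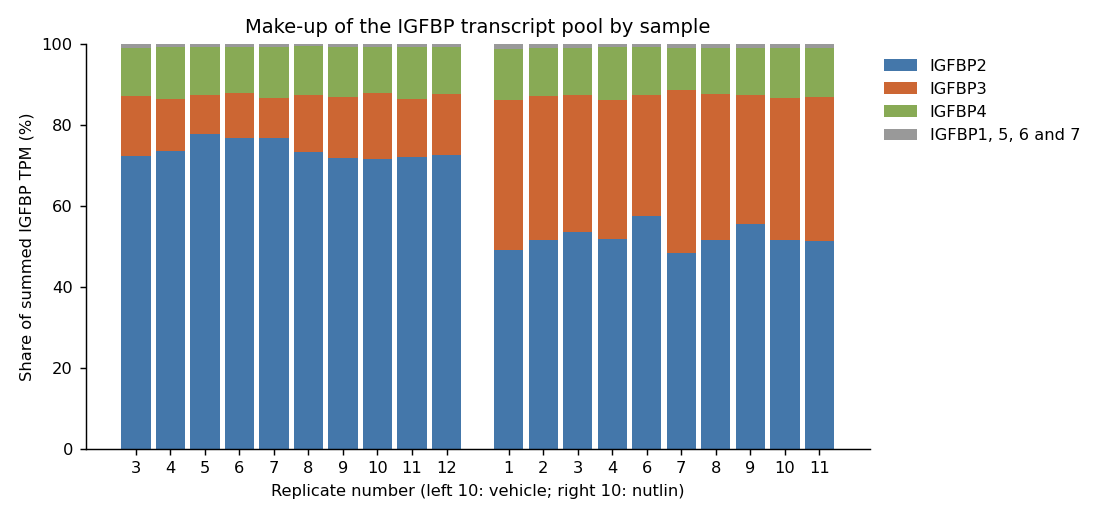
Share of each IGFBP in the summed TPM of the 7 IGFBPs (vertical axis, percent) in each sample, named by replicate number, with vehicle on the left and nutlin on the right. IGFBP2 took between 71.7% and 77.6% in vehicle and between 48.3% and 57.5% in nutlin, and IGFBP3 between 9.73% and 16.2% and between 29.98% and 40.2%.

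The ligands that these proteins bind were measured in the same samples. IGF2, the fetal growth factor and the ligand of all 3 receptors, rose with an LFC of 1.04 (SE 0.06, edgeR adjusted p = 3.6e-16), from a median of 407.1 CPM in vehicle (359 to 438.8) to 790.8 CPM in nutlin (701.6 to 998.8). IGF1 was listed at 0 in all samples. INS, the insulin gene next to IGF2, had an LFC of 2.29 (SE 0.57, adjusted p = 0.00097) at a median of 0 CPM in vehicle and 0.247 CPM in nutlin. It shares sequence with a readthrough transcript into IGF2, so its counts are uncertain. Both tested ligands of the 3 listed were thus called up, against 58.8% of all genes called and 32.3% called up. Their median LFC of 1.66 rests on these 2 genes, and 1 ligand was called up after the filterByExpr filter for low counts.

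The list of IGFBP proteases and their inhibitors holds 7 genes, among them IGFALS, which is neither. Of the 7, 4 rose, none fell and 3 were not called, against 58.8% of all genes called and 32.3% called up (median LFC 1.35). The 4 that rose were those averaging 1 CPM or more, a level at which 80.2% of all genes were called. PAPPA, a metalloprotease that cuts IGFBP4 and IGFBP5, went from a median of 4.13 to 14.4 CPM (LFC 1.81, SE 0.09). PAPPA2, which cuts IGFBP3 and IGFBP5, went from 0.367 to 4.81 CPM (LFC 3.62, SE 0.20). STC2, which encodes a secreted inhibitor of both these proteases, went from 8.63 CPM (6.58 to 11.1) to 92.7 CPM (77.0 to 101.9), with an LFC of 3.39 (SE 0.06, edgeR adjusted p = 1.3e-27). ADAM12, a protease that can cut IGFBP3 and IGFBP5, had an LFC of 1.18 (SE 0.10). The mean TPM in nutlin was 30.04 for STC2, 5.27 for PAPPA and 0.683 for PAPPA2. The protease HTRA1, the inhibitor STC1 and IGFALS were not called (edgeR adjusted p = 0.38, 0.061 and 0.57).

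Of the 19 genes for receptor processing, adaptors and docking proteins, 7 rose, 8 fell and 4 were not called (median LFC -0.05), and 18 of the 19 averaged 1 CPM or more, a level at which 80.2% of all genes were called. The docking proteins of the receptors moved in opposite directions: IRS2 rose from a median of 62.2 to 153.7 CPM (LFC 1.26, SE 0.07), and IRS1 fell from 7.11 to 3.61 CPM (LFC -1.001, SE 0.10). GRB10, an adaptor that binds IGF1R and INSR and restrains their signal, rose from 32.6 to 82.4 CPM (LFC 1.29, SE 0.05). SHC2 rose at low level (LFC 1.58, SE 0.15). GAB1, a docking protein, fell from 18.0 to 8.24 CPM (LFC -1.10, SE 0.07).

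Of the 25 genes of the PI3K, AKT, FOXO and mTOR branch, 9 rose, 12 fell and 4 were not called (median LFC -0.071), against the same 80.2%, and with library totals 6 fell. FOXO1, a transcription factor that AKT keeps out of the nucleus, rose from a median of 0.425 to 1.70 CPM (LFC 2.15, SE 0.24). RHEB, the GTPase that activates mTORC1, fell from 178.5 to 82.95 CPM (LFC -1.11, SE 0.04), and PHLPP1, a phosphatase of AKT, fell from 5.99 to 2.83 CPM (LFC -1.08, SE 0.12). The representative transcript was not in the files for PIK3CB and AKT1 in this list and for PCSK5, SH2B1 and ENPP1 in the list before it, whose values rest on their other transcripts.

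Of the 16 genes of mannose 6-phosphate sorting, which share the lysosomal role of IGF2R, 4 rose, 9 fell and 3 were not called (median LFC -0.21), again against 80.2%, and with library totals 7 rose. VPS29 and VPS35, subunits of the retromer that returns IGF2R from endosomes to the Golgi, fell with LFC values of -1.13 (SE 0.06) and -0.85 (SE 0.03). The third subunit listed, VPS26A, named after its value was seen, fell with an LFC of -0.61 (SE 0.04). CTSD, a lysosomal protease carried by these receptors, had an LFC of 0.10 (SE 0.04, edgeR adjusted p = 0.023), and M6PR, the other receptor of this sorting route and also named after its value was seen, fell with an LFC of -0.28 (SE 0.04). IGF2R thus rose while M6PR fell.

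The list of IGFBP-related genes holds 10 genes, among them the receptor INSRR, which is not a binding protein. Of the 10, 8 were tested, 1 rose, 1 fell and 6 were not called, against 58.8% of all genes called (median LFC 0.15). Only 3 of the 8 averaged 1 CPM or more, a level at which 80.2% of all genes were called, and both called genes were among these. INSRR, a receptor of the insulin receptor family, rose from a median of 49.4 to 70.3 CPM (LFC 0.51, SE 0.08), and IGFBPL1 fell from 88.3 to 61.2 CPM (LFC -0.49, SE 0.05). ESM1 was listed at 0, and CCN4 had no count in vehicle.

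**Figure D5:**
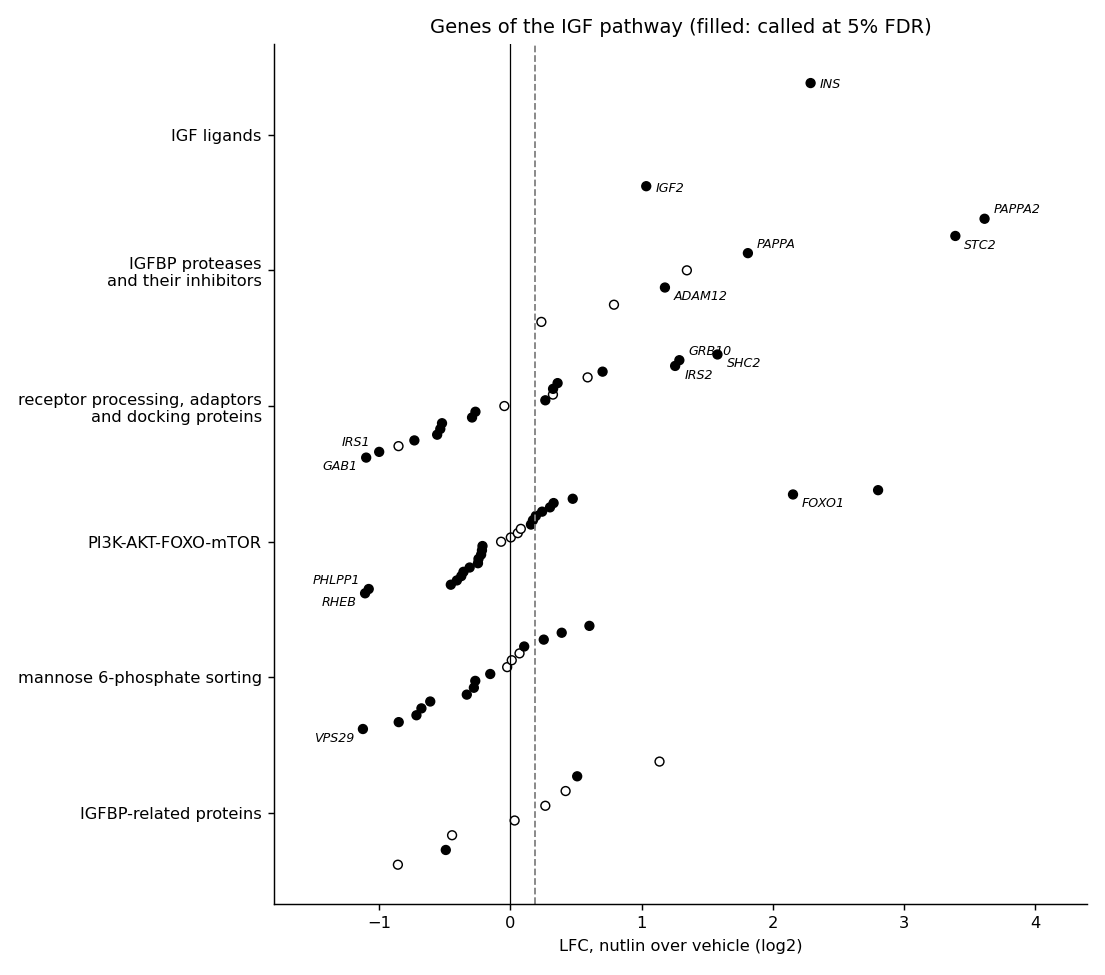
LFC of nutlin over vehicle (horizontal axis, log2) for the tested genes of 6 lists of the IGF pathway, 1 point per gene, filled when called at 5% FDR, with a dashed line at the median of all genes, 0.19; genes named in the text with an absolute LFC of at least 1 carry their symbol. The ligands and the IGFBP proteases with their inhibitors lay above the dashed line, and the other lists held genes on both sides.

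The genes whose levels across the 20 samples were most like those of IGFBP3, by Pearson correlation of log2(CPM + 1) over the 15168 genes averaging 1 CPM or more, were MSX2 (r = 0.987), PRSS12 (r = 0.987) and SGK1 (r = 0.986). For the partial transcripts of IGF1R they were LRRTM2, NEDD4 and GCC2 (r = 0.978 for each). These 20 points fall into the conditions as groups, so each value mostly restates that the genes differ between them, and no p is given.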

How the data were processed

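RNA-seq of NGP cells was analysed from 10 vehicle and 10 nutlin samples, grouped by their titles. For quantification of the paired-end reads of a stranded kit the authors ran kallisto v0.42.4, with an index of Ensembl release 85 (GRCh38). The authors deposited estimated counts per transcript, without normalization, effective lengths in bases, and TPM. Estimated counts were summed per gene of GENCODE release 44 by transcript identifier (191106 of 198968 matched) and rounded, and the 27697 mRNA and lncRNA genes counted at least 1 time in both conditions were tested. Between 95.7% and 96.8% of the counts of a library were matched. A library held 14455477 to 19532971 counts, so that genes below 1 CPM rest on few reads. No samples held identical counts.

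edgeR 4.0.16 (R 4.3.3) was used with TMM, the condition as the only term, the quasi-likelihood F-test and 5% FDR. The same fit was made over 132618 transcripts. The division of reads between transcripts of a gene is an estimate by kallisto, whose error is not given. SE is the absolute LFC divided by the square root of F. Shares were compared by 2-sided permutation tests with 100000 resamples (scipy 1.17.1). The study calls the samples biological replicates; p-values measure the spread between these cultures of 1 line. The fit was tested on simulated data. Alternatives were DESeq2 1.42.0, limma 3.58.1 voom, other scalings, filters and biotypes, a length offset, a replicate block and 1% FDR, and, added after seeing the data, each library left out. The named genes were the members, transcripts with at least 10% of their gene's TPM or singled out for their LFC after it was seen, and per list those called with an absolute LFC of at least 1 and a mean of at least 1 CPM, otherwise the 2 with the highest CPM. The members and lists were chosen with earlier results of these data known. The ratio of IGF1R to INSR and single genes of 2 lists are not reported here.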

Additional observations from a re-analysis of the deposited data

Results flagged for a closer look

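A sample stood apart from the other 9 of its condition in 10 of 78 groups of values examined, by a rule meant to flag about 1 in 20 by chance. That rate need not hold for counts of a few reads. The groups also overlap: IGFBP6 in vehicle replicate 3 enters as CPM, as a share and as transcript counts. All 10 lie in IGFBP1, IGFBP6 and IGFBP7, which are counted at a few reads a library. Vehicle replicate 3 was the highest of its group for IGFBP1 at 0.268 CPM (next 0.142), from 4 counts on IGFBP1-201 (next 1), and for IGFBP6 at 0.336 CPM (next 0.163), which was 0.152% of the IGFBP total (next 0.0720%) and 3.80 counts on IGFBP6-204 (next 2). Vehicle replicate 4 held 2 counts on IGFBP1-203 and vehicle replicate 12 held 3 counts on IGFBP7-203, with 1 in the next sample for both. Nutlin replicate 3 had 0.0693% of the IGFBP total as IGFBP7 (next 0.0328%) and 3.22 counts on IGFBP7-201 (next 1.40). Nutlin replicate 8 held 3 counts on IGFBP6-202 and the other nutlin samples held none.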

How the results depend on the processing

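IGF1R (partial transcripts), IGF2R, IGFBP2, IGFBP3 and IGFBP5 kept their direction and call under all alternatives run, with LFC ranges of 1.70 to 2.88, 0.30 to 0.55, -0.56 to -0.30, 1.22 to 1.46 and 0.26 to 0.48. INSR lost its call with library totals (LFC -0.10) and with the effective length offset (-0.047). IGFBP4 turned with upper-quartile factors (0.11), library totals (0.13) and the filterByExpr filter (0.016, and 0.011 for IGFBP4-201), and was called down with the length offset (-0.085). IGFBP6 turned with the length offset (-0.13), the replicate block (-0.16) and the same 16 samples without it (-0.13), and ranged from -0.088 to 0.54 with a library left out. IGFBP7 turned with DESeq2 size factors (0.020), upper-quartile factors (0.14), library totals (0.15), DESeq2 (0.026), the replicate block (0.22) and the same 16 samples without it (0.28), and ranged from -0.41 to 0.16 with a library left out. IGFBP1 lost its call with the replicate block (LFC 1.36, adjusted p = 0.12), with the same 16 samples without it (1.28) and without nutlin replicate 8, with a range of 1.18 to 1.85 over libraries left out. It was not tested after the filterByExpr filter, nor were IGFBP6 and IGFBP7 (all below its minimum). The members called down numbered 1 with library totals, and those called up 4 to 5 with a library left out. Among the lists, ligands called up numbered 1 after filtering. PI3K branch genes called down numbered 6 with upper-quartile factors and with library totals. Sorting genes called up numbered 7 with upper-quartile factors and with library totals. IGFBP-related genes called up numbered 2 with DESeq2 size factors, upper-quartile factors, library totals, DESeq2, voom and filtering. The IGFBP1 share lost its call with the replicate block (0.0157 points, exact sign flips, p = 0.086), the IGFBP4 share differed when taken from counts (-2.53 points, p = 0.00012), the IGFBP6 share turned without its farthest sample (0.00737 points), and the IGFBP7 share turned with the replicate block (0.00215 points). IGF1R-204 was called up after filtering (LFC 0.72), IGFBP6-202 turned with voom (-0.082) and IGFBP7-203 with the replicate block (0.24). The cause was not tested for any of these. Samples of both conditions share 8 replicate numbers, but same-numbered samples did not deviate together (correlations from -0.05 to 0.08), so the number was not taken to pair them. With the replicate block 7555 genes were called up and 6760 down, against 8196 and 6917 in the same samples without it, and it changed no other call on a member. The ratio of IGF1R to INSR was not run, because full-length IGF1R transcripts were not matched by identifier.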
